A study of Mus musculus with 6 samples.

Results

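The liver genes that make bile acids, conjugate them and take them back up from portal blood were examined here. They are 10 genes of the 49671 in the count table, chosen by symbol to cover the classic and the alternative synthesis pathway, conjugation and uptake. Liver RNA from 6 male C57BL/6J mice was sequenced. Of these, 3 carried the floxed *Shmt2* allele without Cre (SHMT2 fl/fl, labelled WT). The other 3 carried the same floxed allele with Albumin-Cre (SHMT2 HKO, labelled KO), a Cre driven by the albumin promoter and used to delete the gene in hepatocytes. The paper proposes that SHMT2 in the non-parenchymal liver cells was not affected. All 6 mice were placed at 4 weeks of age on the AMLN diet, a steatohepatitis diet high in fat, cholesterol and fructose, stayed on it for 18 weeks, and were 22 weeks old at harvest after a fast of several hours. The comparison asks how loss of SHMT2 in hepatocytes alters these genes on that diet.

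Bile acids are made from cholesterol in hepatocytes and are the main route by which the body disposes of it. The classic pathway starts with CYP7A1, and CYP8B1 then steers its products to cholic acid. The alternative pathway starts with CYP27A1, and CYP7B1 hydroxylates the resulting oxysterols. HSD3B7 and AKR1D1 modify the sterol ring in either pathway, AMACR works in the peroxisomal shortening of the side chain, SLC27A5 couples bile acids to coenzyme A, and BAAT joins them to taurine or glycine. SLC10A1, known as NTCP, carries conjugated bile acids from the portal blood back into the hepatocyte, and high bile acid levels repress synthesis through the receptor FXR.

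Of the 10 genes, 9 rose in HKO livers with TMM scaling and 0 fell, also with DESeq2 or limma-voom. The largest changes were those of *Cyp7b1* (6.26-fold), *Cyp8b1* (5.46-fold) and *Slc10a1* (4.59-fold), whereas *Cyp7a1*, the rate-limiting gene of the classic pathway, did not pass the test. The threshold for a call was 0.05 for the Benjamini-Hochberg adjusted p-value of edgeR's quasi-likelihood test, computed over the 16089 genes that passed a filter on low counts, as all 10 genes did. By the same rule 29% of all tested genes were called, 12.5% higher and 16.5% lower in HKO livers. With DESeq2 15.8% and with limma-voom 12.4% of all tested genes were called higher. For the same 9 genes every HKO liver was above every fl/fl liver, where 46.9% of all tested genes had genotypes that did not overlap, 21.9% with HKO above and 25% with HKO below. The median log2 fold change was 1.08 over the 10 genes and 0.03 over all tested genes. The 10 genes were chosen with earlier results of these livers known, so these counts are a description.

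Levels are given in CPM, the count scaled to the library size after TMM scaling, a method that aligns the bulk of the genes between samples. The scaling enters every fold change, because the TMM factors were 1.13 to 1.21 in fl/fl livers and 0.802 to 0.984 in HKO livers. Of the 4663 genes called, 43.1% were higher in HKO livers, and this share was 32.5% with upper-quartile scaling, 9.87% with plain library size, 6.68% with scaling to 8 hepatocyte markers and 3.73% with scaling to the ERCC spike-in RNAs. Counts on genes were 23090837 to 34089722 per liver, so that 3 counts corresponded to 0.0734 to 0.152 CPM. The deleted gene *Shmt2* had 94.6, 109 and 93.9 CPM in fl/fl mice 1, 2 and 3 and 24.9, 28.3 and 19.3 in HKO mice 1, 2 and 3 (p = 0.1 in a two-sided exact permutation test, the lowest value that 3 against 3 can give). The labels do not say how the samples of a genotype relate beyond their numbers, so the p-values measure the spread between these samples.

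The promoters of *Cyp8b1* and *Slc10a1* are shown because these were the genes of the 10 whose call held under each of 16 alternative settings. RefSeq on GRCm38 gave an upstream window for 5 of the 10 genes (*Cyp8b1*, *Cyp27a1*, *Hsd3b7*, *Akr1d1* and *Slc10a1*) and none here for *Cyp7a1*, *Cyp7b1*, *Amacr*, *Slc27a5* and *Baat*. The sequences are the 250 bases before the start site, 5′ to 3′ on the strand of the gene, at chr9:121916306-121916555 (minus strand) for *Cyp8b1* and chr12:80968706-80968955 (minus strand) for *Slc10a1*. Capitals mark matches to any of 12 motifs searched on both strands.
Cyp8b1: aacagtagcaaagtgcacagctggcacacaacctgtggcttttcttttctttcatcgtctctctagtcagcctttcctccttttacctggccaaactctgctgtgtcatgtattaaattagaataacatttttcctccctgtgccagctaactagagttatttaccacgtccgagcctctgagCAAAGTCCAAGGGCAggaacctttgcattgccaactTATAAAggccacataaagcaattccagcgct
Slc10a1: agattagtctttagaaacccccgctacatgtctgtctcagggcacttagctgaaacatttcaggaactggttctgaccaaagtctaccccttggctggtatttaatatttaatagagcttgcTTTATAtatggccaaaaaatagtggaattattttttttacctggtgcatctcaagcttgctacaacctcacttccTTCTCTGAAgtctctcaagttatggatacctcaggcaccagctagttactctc
In the *Cyp8b1* window the HNF4A motif CAAAGTCCA covers bases 67 to 59 before the start and runs directly into a match to CAAGGNCA, the motif of LRH-1 (the product of *Nr5a2*), at bases 60 to 53, so that 2 bases belong to both. CAAAGTCCA was present in 0.384% of 32851 windows of this length and CAAGGNCA in 5.53%. A TATAAA (12.4% of windows) lies at bases 31 to 26. In the *Slc10a1* window the capitals are a TATAAA on the other strand, at bases 128 to 123, and TTCTCTGAA, a match to the STAT5 motif TTCNNNGAA (7.02% of windows) at bases 53 to 45. TTCNNNGAA was also found in the *Hsd3b7* window, as TTCCTGGAA at bases 21 to 13. The windows of *Cyp27a1* and *Akr1d1*, and a second window of *Slc10a1*, held 0 matches to these letters. The other motifs searched, GTTAAT (HNF1), TCACNCCAC (sterol regulatory element), CACGTG (E-box), TTATGTAA (D-box), the full HNF1 palindrome, and the nuclear receptor direct repeats 1 and 4 and inverted repeat 1, had 0 matches in these windows and were present in 0.00609% to 6.43% of all windows.

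In the classic pathway the gene for the first step and the gene for cholic acid formation behaved unlike each other. *Cyp7a1* (ENSMUSG00000028240, GRCm38 chromosome 4, 6265612 to 6275633) had 172, 105 and 77.6 CPM in fl/fl mice 1, 2 and 3 and 176, 246 and 102 CPM in HKO mice 1, 2 and 3. The genotypes overlapped, and fl/fl mouse 1 lay within 5 CPM of HKO mouse 1. Its log2 fold change of 0.56 (SE 0.37, adjusted p = 0.297) had a 95% interval from -0.30 to 1.43, so neither a small fall nor a rise of about the size seen in *Slc27a5* lies outside it.

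*Cyp8b1* (ENSMUSG00000050445, chromosome 9, 121914356 to 121916305) had 65.8, 50.5 and 56.6 CPM in fl/fl livers and 288, 484 and 173 CPM in HKO livers 1, 2 and 3. The lowest HKO liver was well above the highest fl/fl liver, and the HKO livers spread far more among themselves than the fl/fl livers. The log2 fold change was 2.45 (SE 0.35, adjusted p = 0.00266) and stayed between 1.53 and 2.72 under all 16 alternatives, with adjusted p-values up to 0.0183.

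The ratio of *Cyp8b1* to *Cyp7a1* within a liver does not depend on the scaling between libraries. Taken per kb of exon, it was 0.820, 1.03 and 1.56 in fl/fl mice 1, 2 and 3 and 3.50, 4.20 and 3.65 in HKO mice 1, 2 and 3. *Cyp8b1* was thus above *Cyp7a1* in every HKO liver by a similar factor, although the level of either gene varied between these livers by more than 2-fold. The genotypes did not overlap.

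Both genes assigned here to the start of the alternative pathway rose. *Cyp27a1* (ENSMUSG00000026170, chromosome 1, 74713574 to 74737892), whose mitochondrial enzyme oxidizes the cholesterol side chain, had 241, 303 and 259 CPM in fl/fl livers and 528, 603 and 451 CPM in HKO livers. The rise of 1.97-fold (log2 fold change 0.98, SE 0.17, adjusted p = 0.00486) was larger than the spread among mice of a genotype. *Cyp7b1* (ENSMUSG00000039519, chromosome 3, 18071950 to 18243338), an oxysterol hydroxylase that is more abundant in male than in female mouse liver, had 23.8, 17.8 and 18.3 CPM in fl/fl livers and 242, 79.6 and 53.7 CPM in HKO livers 1, 2 and 3. HKO mouse 1 stood far above the other two, but these also exceeded each fl/fl liver.

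The log2 fold change of *Cyp7b1* was 2.65 (SE 0.55, adjusted p = 0.0131) and 1.74 without HKO mouse 1 (adjusted p = 0.00079). It was not called without fl/fl mouse 2 (adjusted p = 0.0718) or fl/fl mouse 3 (0.0636), or with no filter on low counts (0.0993). Relative to *Cyp7a1* per kb of exon, *Cyp7b1* was at 0.267, 0.327 and 0.454 in fl/fl livers and at 2.65, 0.623 and 1.02 in HKO livers 1, 2 and 3. The groups did not overlap in this ratio, and *Cyp7b1* exceeded *Cyp7a1* in HKO mouse 1 and, by a small margin, in HKO mouse 3. For *Cyp27a1* the same ratio overlapped, with 2.69 to 6.41 in fl/fl and 4.70 to 8.54 in HKO livers.

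**Figure D1:**
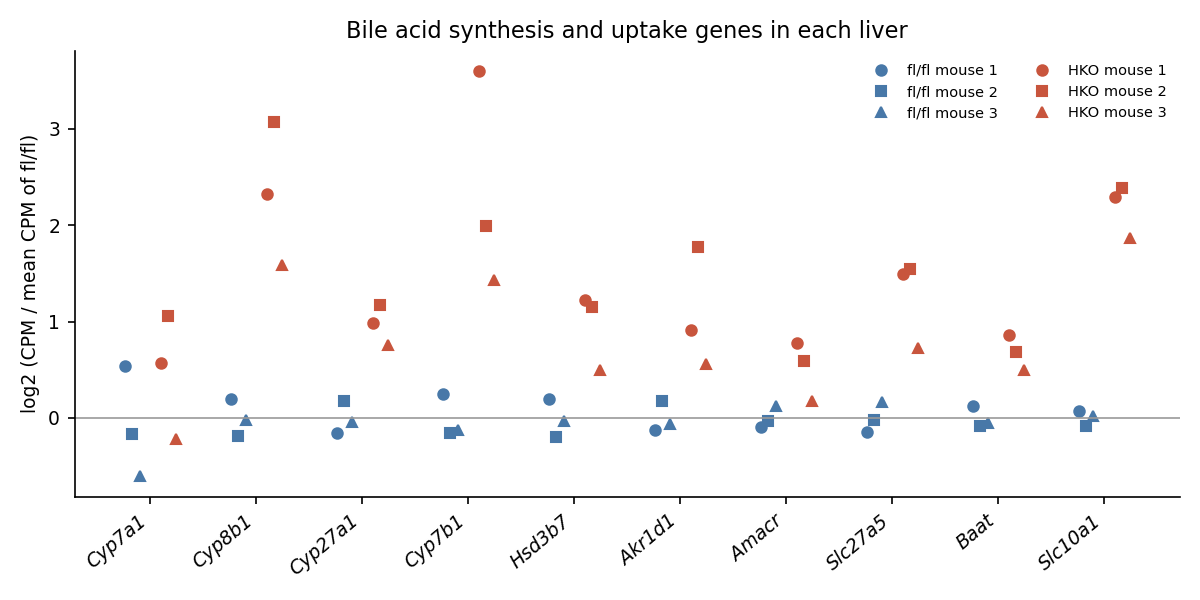
Level of each of the 10 genes in each of the 6 livers, as log2 of CPM over the mean CPM of fl/fl livers (vertical axis), with 1 symbol per mouse (blue fl/fl, red HKO). *Cyp7a1* overlaps between genotypes, the other 9 genes do not, and HKO mouse 3 is the lowest HKO mouse for all 10.

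The enzymes that modify the ring rose with them. *Akr1d1* (ENSMUSG00000038641, chromosome 6, 37530173 to 37568815), which reduces a double bond of the ring, had 35.9, 44.1 and 37.5 CPM in fl/fl livers and 73.6, 134 and 57.8 CPM in HKO livers 1, 2 and 3. HKO mouse 2 was the highest, and the log2 fold change of 1.17 (SE 0.29, adjusted p = 0.0195) was 0.75 without it (adjusted p = 0.0223). When any of the 3 fl/fl mice was left out, the adjusted p-value was 0.0545 to 0.0736. *Hsd3b7* (ENSMUSG00000042289, chromosome 7, 127800604 to 127803802), the dehydrogenase that acts after the first hydroxylation, had the lowest measured level of the 10 genes. Its levels were 13.7, 10.4 and 11.7 CPM in fl/fl livers and 28.0, 26.5 and 16.9 CPM in HKO livers (log2 fold change 0.99, SE 0.21, adjusted p = 0.0105). The transcript *9430064I24Rik* overlaps its exons by 1729 bp on the opposite strand and was itself higher in HKO livers (log2 fold change 0.85), and the use of the strand in counting is not given in the sources used here. The protein-coding *Gm49388* overlaps the exons of *Hsd3b7* by 1717 bp on the same strand and had 0 to 3 counts per liver. How reads on these shared bases were assigned is not given, so the low level of *Hsd3b7* is uncertain.

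The genes that complete and conjugate bile acids differed in the size and the firmness of their rise. *Slc27a5* (ENSMUSG00000030382, chromosome 7, 12988346 to 12998192) had 312, 340 and 387 CPM in fl/fl livers and 974, 1010 and 572 CPM in HKO livers 1, 2 and 3. Its log2 fold change was 1.30 (SE 0.24, adjusted p = 0.00589), and it lost its call only with ERCC scaling. *Baat* (ENSMUSG00000039653, chromosome 4, 49489422 to 49506557) had 129, 112 and 115 CPM against 216, 190 and 167 CPM, a rise of 1.61-fold (log2 scale 0.69, SE 0.14, adjusted p = 0.0092) that ERCC scaling turned to -0.09. Without fl/fl mouse 3 its adjusted p-value was 0.0518.

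*Amacr* (ENSMUSG00000022244, chromosome 15, 10981756 to 10996626), a racemase of branched-chain acyl-CoAs and of bile acid intermediates, showed the smallest change of those called. It had 114, 118 and 132 CPM in fl/fl livers and 208, 183 and 137 CPM in HKO livers 1, 2 and 3, so that HKO mouse 3 was close to fl/fl mouse 3. The log2 fold change of 0.54 (SE 0.17, adjusted p = 0.0452) kept its call under 5 of 16 alternatives and turned negative with ERCC or hepatocyte marker scaling.

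The uptake gene had the smallest adjusted p-value of the 10 genes. *Slc10a1* (ENSMUSG00000021135, chromosome 12, 80953183 to 80968705) had 81.9, 73.6 and 79.1 CPM in fl/fl livers and 383, 409 and 285 CPM in HKO livers 1, 2 and 3. Each HKO liver was above 3 times each fl/fl liver. The log2 fold change was 2.20 (SE 0.17, adjusted p = 0.000639) and ranged from 1.39 to 2.32 under the alternatives with adjusted p-values up to 0.0181.

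For all 10 genes HKO mouse 3 had the lowest level of the HKO livers, and the highest was HKO mouse 2 for 6 genes and HKO mouse 1 for 4. Of all 2012 genes called higher in HKO livers, 60.8% were also lowest in HKO mouse 3. This order depended on the scaling, since HKO mouse 3 was lowest for 8 of the 10 genes per plain library size and for 0 when the counts were set against the ERCC RNAs. Of the same 2012 genes, 31.6% were lowest in HKO mouse 3 per library size and 1.54% against the ERCC RNAs. The ERCC RNAs made up 2.75%, 2.31% and 1.35% of the counts in HKO mice 1, 2 and 3 and 1.42% to 1.84% in fl/fl livers. HKO mouse 3 had a TMM factor of 0.984 and HKO mice 1 and 2 had 0.812 and 0.802.

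The change of several genes also depended on the scaling. Scaling to the library size moved the median gene's log2 fold change by -0.42, scaling to the hepatocyte markers by -0.51 and scaling to the ERCC RNAs by -0.72. Relative to the median gene, the median of the 10 genes was 1.06 with TMM, 1.03 with library size and 0.97 with the ERCC RNAs, and each of the 10 genes lay above the median gene in all 4. Against 0, however, 5 genes were called with library size (*Cyp8b1*, *Cyp27a1*, *Cyp7b1*, *Slc27a5*, *Slc10a1*), 4 with the hepatocyte markers (these without *Cyp27a1*) and 3 with the ERCC RNAs (*Cyp8b1*, *Cyp7b1*, *Slc10a1*). Of all tested genes, 3.35% were called higher with library size, 1.72% with the hepatocyte markers and 0.665% with the ERCC RNAs. Without fl/fl mouse 3 the number called was also 5 (*Cyp8b1*, *Cyp27a1*, *Hsd3b7*, *Slc27a5*, *Slc10a1*). With ERCC scaling *Cyp7a1*, *Amacr* and *Baat* had log2 fold changes of -0.35, -0.28 and -0.09, and with the hepatocyte markers *Cyp7a1* and *Amacr* had -0.07 and -0.01, with no test passed.

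**Figure D2:**
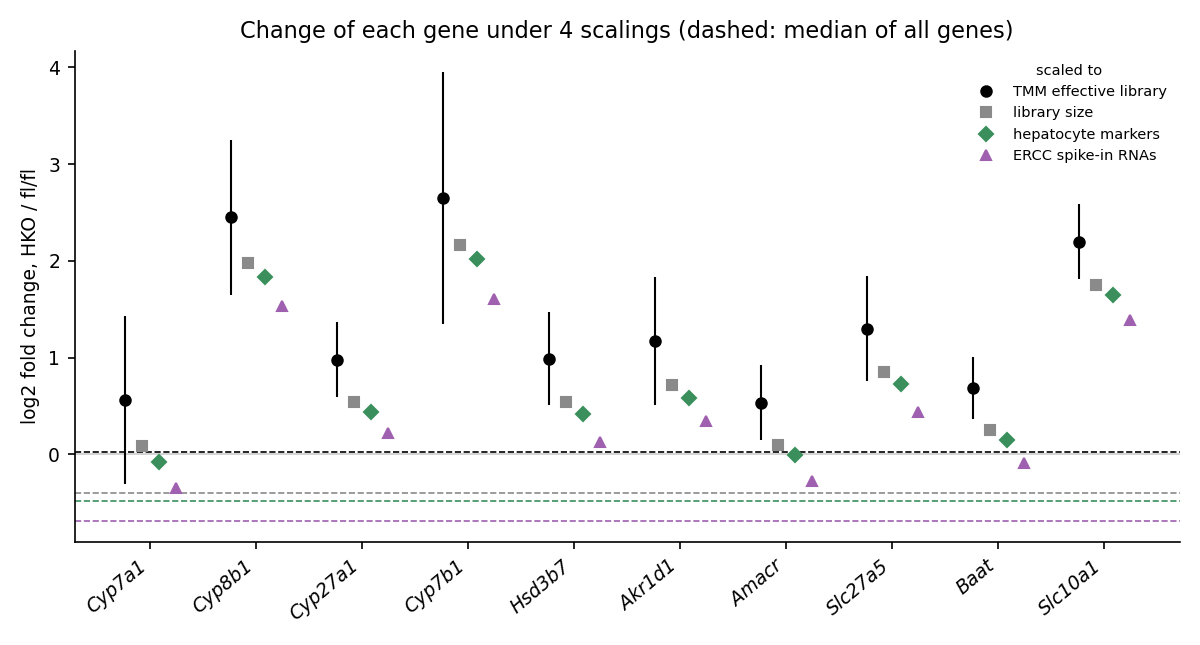
Log2 fold change of HKO over fl/fl (vertical axis) for the 10 genes under 4 scalings, with the 95% interval of the TMM value as a bar and the median of all genes under each scaling as a dashed line of the same color. *Cyp8b1*, *Cyp7b1* and *Slc10a1* stay above 1 under all 4, with values of 1.53 to 2.45 for *Cyp8b1* and 1.39 to 2.20 for *Slc10a1*, while *Cyp7a1*, *Amacr* and *Baat* cross 0.

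Levels were compared between genes per kb of exon, using GENCODE M21 exon lengths, and are given as the mean of 3 mice with the lowest and the highest. In fl/fl livers *Slc27a5* was the most abundant, with 142 CPM per kb (128 to 159), followed by *Cyp27a1* with 123 (111 to 139), and the ranges of these genes overlapped. *Baat* (61.1, range 57.6 to 66.6) and *Amacr* (46.6, range 43.6 to 50.7) came next and were separate from each other and from their neighbours. *Slc10a1* (35.6, range 33.5 to 37.2), *Cyp8b1* (29.6, range 25.9 to 33.7) and *Cyp7a1* (28.3, range 18.6 to 41.1) overlapped. *Akr1d1* (13.5, range 12.4 to 15.2), *Cyp7b1* (9.21, range 8.23 to 11.0) and *Hsd3b7* (4.31, range 3.76 to 4.96) were lower and did not overlap.

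In HKO livers *Slc27a5* (350 CPM per kb, range 235 to 414) and *Cyp27a1* (243, range 208 to 278) were again the highest, with overlapping ranges. *Slc10a1* moved from the fifth to the third place with 163 CPM per kb (129 to 186) and overlapped *Cyp8b1* with 161 (88.9 to 248), whose wide range reached both *Slc27a5* and *Cyp27a1* above it and *Baat* (98.4, range 85.9 to 111) below it. *Amacr* (67.6, range 52.8 to 79.7) was below *Baat* in every liver. *Cyp7b1* (57.7, range 24.8 to 112) overlapped *Cyp8b1*, *Baat* and *Amacr* above it and *Cyp7a1* (41.8, range 24.3 to 59.0) and *Akr1d1* (30.5, range 20.0 to 46.2) below it. *Cyp7a1* also overlapped *Amacr* and *Akr1d1*, so the order of these genes in HKO livers is not set apart by their spread. *Hsd3b7* (8.59, range 6.10 to 10.1) was the lowest gene in either genotype, with the limit of its shared exons given above.

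**Figure D3:**
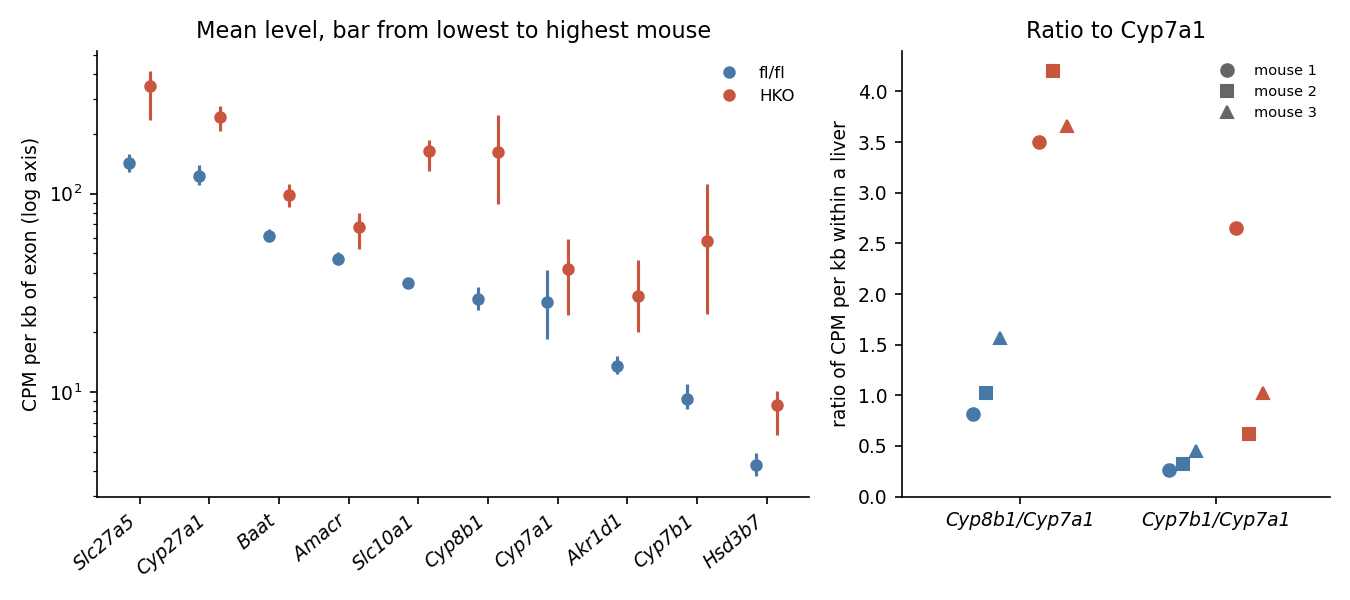
Left, mean CPM per kb of exon (log axis) of the 10 genes in fl/fl (blue) and HKO (red) livers, with a bar from the lowest to the highest of 3 mice. Right, ratio of *Cyp8b1* and *Cyp7b1* to *Cyp7a1* within each of the 6 livers, which was 0.820 to 1.56 against 3.50 to 4.20 for *Cyp8b1* and 0.267 to 0.454 against 0.623 to 2.65 for *Cyp7b1*.

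Of 10 other genes of bile acid synthesis, 6 rose and 4 were not called, with a median log2 fold change of 0.83. With library size 3 were called higher, and with ERCC or hepatocyte marker scaling 0 were called in either direction. Over all tested genes 12.5% were called higher with TMM scaling and 3.35% with library size. This share was 0.665% with ERCC and 1.72% with hepatocyte marker scaling. *Hsd17b4*, the bifunctional protein of side chain β-oxidation, rose 1.87-fold (adjusted p = 0.00615). *Scp2*, whose products include the thiolase of the last step of this oxidation, rose 1.83-fold as a whole gene. *Abcd3*, a transporter of the peroxisomal membrane, rose 2.19-fold. *Slc27a2*, an acyl-CoA synthetase, rose 1.82-fold and *Acot8*, a peroxisomal thioesterase whose change was negative with ERCC scaling, 1.55-fold. *Cyp46a1*, which hydroxylates cholesterol in the brain and is scarce in liver, rose from 2.85 ± 0.404 to 7.32 ± 1.52 CPM (SD, n = 3). *Cyp2c70*, the murine enzyme that makes muricholic acids, was not called, with 187, 232 and 204 CPM in fl/fl livers and 609, 269 and 205 CPM in HKO livers 1, 2 and 3. As with *Cyp7b1*, HKO mouse 1 was the highest, and without HKO mouse 3 *Cyp2c70* was called higher (adjusted p = 0.0442) while with ERCC scaling its change was negative.

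Among 13 other transporters of bile acids and biliary lipids, 12 were tested, 3 rose and 1 fell. With TMM scaling 29% of all tested genes were called in either direction. The numbers of transporters were 3 and 3 with library size, 1 and 2 with ERCC scaling and 2 and 3 with hepatocyte marker scaling. Of all 16089 tested genes, 539 were higher and 4923 lower with library size. The same numbers were 107 and 2759 with ERCC scaling and 276 and 3857 with hepatocyte marker scaling. The numbers of transporters called lower were thus near the shares over all genes. *Slc51a* had 0 counts in all 6 livers, where 3 counts would have been at most 0.152 CPM. *Slco1a1*, a sinusoidal uptake carrier that is male-biased in mice, had 19.1, 9.90 and 6.16 CPM in fl/fl livers and 281, 92.2 and 140 CPM in HKO livers (14.6-fold, adjusted p = 0.00395). *Slco1b2*, a carrier for unconjugated bile acids, rose 2.73-fold, and *Abcb11*, the bile salt export pump of the canalicular membrane, rose from 273 ± 23.9 to 478 ± 30.6 CPM (SD, n = 3, 1.75-fold, adjusted p = 0.00516). The basolateral exporter *Abcc4* fell, with 13.4, 16.1 and 16.8 CPM in fl/fl livers and 2.04, 5.17 and 5.35 CPM in HKO livers (log2 fold change -1.88, adjusted p = 0.00517). *Slco1a1* and *Abcc4* kept their calls under all 16 alternatives.

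Of 14 sensors and regulators, 4 rose and 10 were not called, with a median log2 fold change of 0.35. Of all tested genes 29% were called, 12.5% higher and 16.5% lower, so the number called in either direction was near the share over all genes. The number higher was 7 with DESeq2, 5 with limma-voom and 3 to 5 when 1 mouse was left out. With library size 1 was higher and 2 were lower, with hepatocyte marker scaling 1 and 1, and with ERCC scaling 0 were called. *Nr1h4*, which encodes FXR, rose 1.62-fold with TMM scaling from 96.9 ± 7.31 to 157 ± 13.4 CPM (SD, n = 3, adjusted p = 0.00564 in edgeR), and its change was -0.05 on the log2 scale with ERCC scaling. *Nr0b2*, a target of FXR that encodes the repressor SHP, had 14.2, 19.6 and 24.2 CPM in fl/fl livers and 11.5, 19.0 and 29.9 CPM in HKO livers. The genotypes overlapped, with a log2 fold change of 0.06 and a 95% interval from -0.71 to 0.84. *Klb*, the co-receptor of FGF15, rose 1.83-fold (adjusted p = 0.00994), and its partner *Fgfr4* had 57.2, 42.5 and 51.8 CPM in fl/fl and 50.4, 43.1 and 35.9 CPM in HKO livers (adjusted p = 0.331).

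*Nr1h3*, which encodes the oxysterol receptor LXRα, rose 1.65-fold (adjusted p = 0.0119), a change that was -0.07 on the log2 scale with ERCC scaling. *Nr1i3*, which encodes the xenobiotic receptor CAR, rose 3.41-fold from 41.4 ± 10.2 to 141 ± 45.6 CPM (SD, n = 3), and its exons overlap those of *Tomm40l* on the opposite strand by 3304 bp. The 2 factors whose motifs meet in the *Cyp8b1* promoter, *Hnf4a* (log2 fold change 0.41, adjusted p = 0.101) and *Nr5a2* (0.37, adjusted p = 0.0593), did not pass the threshold. Both were called higher with DESeq2 (adjusted p = 0.0379 for *Hnf4a* and 0.0335 for *Nr5a2*), *Nr5a2* also without HKO mouse 3 (0.0238), and the changes of both were negative with library size, hepatocyte marker and ERCC scaling.

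Of 5 genes of taurine supply, which provides the partner for conjugation in mice, 2 rose and 1 fell. When any single mouse other than HKO mouse 3 was left out the number higher was 1, and with library size, ERCC or hepatocyte marker scaling it was 0, each with 1 lower. Over all tested genes 12.5% were called higher and 16.5% lower with TMM scaling. Called lower were 4923 of the 16089 genes with library size, 2759 with ERCC and 3857 with hepatocyte marker scaling. The number lower in this list was thus near the shares over all genes. *Cdo1*, the cysteine dioxygenase, rose 1.57-fold (adjusted p = 0.0439, not called under 11 of 16 alternatives and negative with ERCC scaling) and *Fmo1*, which can oxidize hypotaurine, 1.88-fold (adjusted p = 0.00992). The taurine transporter *Slc6a6* fell from 129, 131 and 123 CPM in fl/fl livers to 84.8, 83.6 and 87.6 CPM in HKO livers (adjusted p = 0.00603). *Csad*, which makes hypotaurine, had a log2 fold change of -0.19 with overlapping genotypes.

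**Figure D4:**
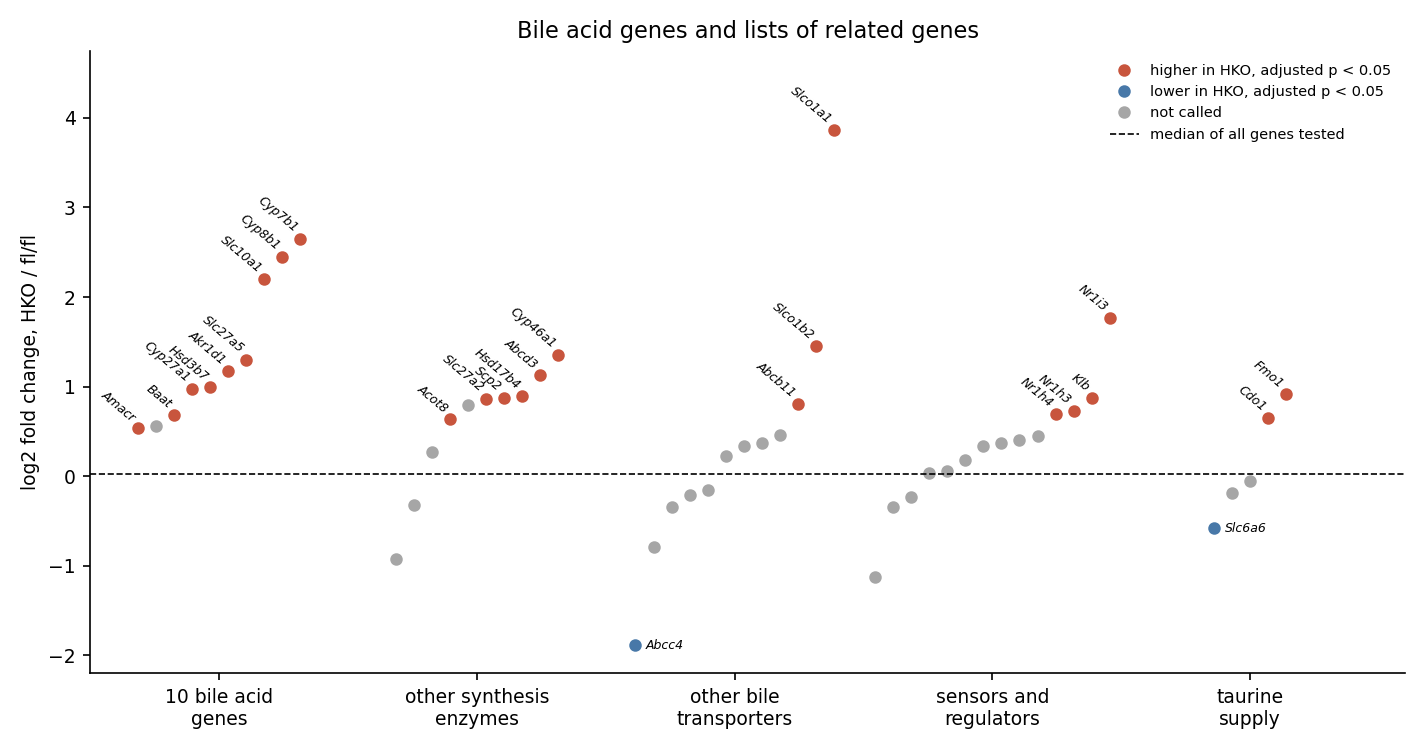
Log2 fold change of HKO over fl/fl (vertical axis) for each tested gene of the 10 bile acid genes and of 4 lists of related genes, in order within each list, with called genes named. Most called genes are higher in HKO livers, with *Abcc4* and *Slc6a6* lower, and the dashed line is the median of all genes at 0.03.

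Markers of some cell types also differed between genotypes. Of all tested genes 29% were called, 12.5% higher and 16.5% lower, and the calls among hepatocyte and periportal markers were near the 29%. In whole liver RNA, a change in the number of cells of a type and a change in RNA per cell cannot be told apart. Of 8 hepatocyte markers 2 were called higher. The number was 5, with 1 lower, with DESeq2, 5 without HKO mouse 3, 0 without fl/fl mouse 2 and 1 when any other single mouse was left out, and library size or ERCC scaling gave 0 higher and 1 lower. Their summed level was 53641 to 66160 CPM in fl/fl and 65307 to 98211 CPM in HKO livers, with HKO mouse 3 the lowest HKO liver. *Alb*, the marker of hepatocytes, was at 34486 CPM or more in every liver. All 6 cholangiocyte markers fell under each of these scalings, from sums of 956 to 1188 CPM to 128 to 246 CPM. *Spp1* made up most of these sums, with 876, 944 and 792 CPM in fl/fl and 104, 105 and 215 CPM in HKO mice 1, 2 and 3. Of 6 markers of pericentral hepatocytes, the zone around the central vein, 4 rose (3 with ERCC scaling, 5 with DESeq2 and 6 without HKO mouse 3), and their sum went from 1872 to 3227 CPM in fl/fl to 7187 to 10997 CPM in HKO livers. Of 5 periportal markers 1 was called higher, against 0 without fl/fl mouse 1 or 2 and 2 without HKO mouse 3, and their sums overlapped. Library size or hepatocyte marker scaling gave 0 higher and 2 lower, and ERCC scaling 0 higher and 1 lower. Without HKO mouse 2 there were 1 higher and 1 lower.

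With TMM scaling 2012 of all 16089 tested genes were called higher (12.5%) and 2651 lower (16.5%). These numbers were 539 and 4923 with library size, 107 and 2759 with ERCC scaling and 276 and 3857 with hepatocyte marker scaling. Of 5 lymphocyte markers 3 fell, 4 with library size or ERCC scaling and 2 without fl/fl mouse 1 or with at least 10 counts in every sample. Their sums were 32.4 to 51.9 CPM in fl/fl and 13.0 to 22.0 CPM in HKO livers. Of 6 stellate cell markers 3 fell and 1 was called higher (900 to 945 against 194 to 539 CPM), with HKO mouse 3 the highest HKO liver. The number lower was 1 without fl/fl mouse 2, fl/fl mouse 3 or HKO mouse 2 and with no filter, and 2 without fl/fl mouse 1 and with ERCC scaling, and it was 4 with library size and without HKO mouse 3. Of 6 macrophage markers *Clec4f* and *Timd4* rose and *Cd68* fell (log2 fold changes 2.83, 3.57 and -0.85), and *Adgre1* (-0.72) was not called. The number lower was 2 without HKO mouse 3 and with DESeq2, limma-voom, upper-quartile, library size or hepatocyte marker scaling. It was also 2, with 1 higher, with at least 10 counts in every sample. Their sums were 108 to 225 against 267 to 345 CPM, and *Clec4f* and *Cd5l* (not called) made up most of the HKO sums. Of 5 endothelial markers 2 were called higher (126 to 150 against 203 to 236 CPM). The number was 4 with DESeq2 or without HKO mouse 1. Library size gave 1 higher and 1 lower, hepatocyte marker scaling 1 higher, and ERCC scaling 0. With the counts scaled to the hepatocyte markers, 6 of the 10 bile acid genes had every HKO liver above every fl/fl liver, as did 3.88% of all tested genes, and 4 of these 6 were called. The part of the other cell types and of the zones in these results was not tested.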

How the data were processed

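Livers of 3 WT (SHMT2 fl/fl) and 3 KO (SHMT2 HKO) mice were profiled by RNA-seq. The authors trimmed the reads (Trimmomatic 0.36), mapped them with STAR 2.5.2b to GRCm38 plus the ERCC sequences, and counted unique hits per gene. The submitters' processing notes also name featureCounts of Subread 1.5.2. The deposited values are raw counts for 49671 genes and 92 ERCC RNAs, the latter left out of library sizes and tests.

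Genes were matched to symbols and exon lengths by Ensembl ID in GENCODE M21 (49326 matched). Counts were filtered with filterByExpr, scaled by TMM and tested with edgeR 4.0.16 in R 4.3.3 (robust quasi-likelihood F test, two-sided, Benjamini-Hochberg adjustment over 16089 genes). Every adjusted p-value is from this test unless another is named. Alternatives were DESeq2 1.42.0, limma-voom (limma 3.58.1), other scalings and filters, non-robust dispersions, a replicate block, and leaving out each mouse. The scaling to 8 hepatocyte markers was chosen after seeing the data. Samples of a genotype differed beyond sampling noise, with a chi-square per gene of 23.6 to 140. The 10 genes and all lists were chosen with earlier results of these data known. All 10 genes and *Shmt2* are named, and genes of the other lists were named by role after their values were seen. The code was tested on simulated counts. Motifs and promoter windows were matched by script to RefSeq sequences (GRCm38.p6).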

Additional observations from a re-analysis of the deposited data

How the results depend on the processing

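The call of *Cyp8b1*, *Slc10a1*, *Slco1a1*, *Abcc4*, *Slc6a6* and *Shmt2* held under all 16 alternatives, and 0 bile acid genes were called lower under any of them. The number of the 10 genes called higher was 9 with DESeq2, limma-voom and non-robust dispersions, 8 with upper-quartile scaling, 8 with at least 10 counts in every sample, 7 with no filter, 5 with library size, 4 with hepatocyte markers, 3 with ERCC scaling, and 5 to 9 when 1 mouse was left out, lowest without fl/fl mouse 3. The number of all genes called was 2866 with ERCC scaling and 2426 to 5597 when 1 mouse was left out, lowest without fl/fl mouse 3 and also below the main count by over 1.5 times without fl/fl mouse 1 (2699), fl/fl mouse 2 (2547) or HKO mouse 2 (3023). Log2 fold changes turned negative with ERCC scaling for *Cyp7a1* (-0.35), *Amacr* (-0.28), *Baat* (-0.0909), *Acot8* (-0.0742), *Cyp2c70* (-0.13), *Nr1h4* (-0.0465), *Nr0b2* (-0.44), *Nr5a2* (-0.41), *Hnf4a* (-0.27), *Nr1h3* (-0.0721) and *Cdo1* (-0.17). They did so with hepatocyte markers for *Cyp7a1* (-0.0743), *Amacr* (-0.0103), *Nr0b2* (-0.34), *Nr5a2* (-0.17) and *Hnf4a* (-0.0792), and with library size for *Nr0b2* (-0.31), *Nr5a2* (-0.0694) and *Hnf4a* (-0.0055). *Nr0b2* was also negative with limma-voom (-0.0011), upper-quartile scaling (-0.0291), the replicate block (-0.0109) and without fl/fl mouse 1 (-0.12) or HKO mouse 3 (-0.36), with up to 0.34 when another mouse was left out, and *Csad* was positive without HKO mouse 1 (0.0785) and as low as -0.61 without HKO mouse 3. Of genes not called with the settings used throughout, *Nr5a2* and *Hnf4a* were called higher with DESeq2, *Nr5a2* and *Cyp2c70* without HKO mouse 3, and *Fgfr4* lower with library size or hepatocyte markers. The shift of the median gene between scalings accompanies these signs, and the cause of that shift was not tested. Same-numbered mice did not deviate together (correlations of -0.05, 0.01 and -0.08). With 3 mice per genotype such correlations cannot tell whether same-numbered mice were related or handled together. With the replicate block 8 of the 10 genes were called, *Amacr* losing its call, and 3584 genes in all.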
